A study of Mus musculus with 40 samples.

Results

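The RNAs described here are 7 long noncoding RNAs that are abundant in brain or held in the nucleus, *Malat1*, *Neat1*, *Miat*, *Meg3*, *Rian*, *Mirg* and *Snhg11*, and 2 ribosomal transcripts, *Gm42418* and *n-R5-8s1*. They are 9 of the 47643 genes in the count tables, and all 9 were found through the Ensembl identifiers that GENCODE mouse release 21 pairs with these symbols. They were chosen by their levels and changes in these same libraries, so their ranks, levels and changes are a description of these libraries, and the p-values given for single RNAs are no independent support for them. RNA-seq libraries came from the hippocampus and frontal cortex of wild-type Swiss Webster mice, an outbred stock, that had been raised germ-free. All mice were juvenile, ate standard chow and received stool of 1 of 10 human donors with epilepsy, taken either before that donor started a ketogenic diet (pre-KD) or while on it (post-KD). The 20 cohorts (10 donors, pre-KD and post-KD) gave 1 library per region, 40 in all and 10 per region and condition. Each library pooled tissue of several mice, so n counts pools and the p-values measure the spread between pools of different donors. A ketogenic diet was therefore eaten by the donors and never by the mice, and mice without a microbiota are not analysed here.

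Long noncoding RNAs act without being translated, and many stay near the chromatin or in bodies of the nucleus. *Malat1* lies in nuclear speckles, where splicing factors gather, and *Neat1* is the scaffold of paraspeckles, bodies that hold RNA-binding proteins. *Meg3*, *Rian* and *Mirg* are read in tandem from the maternal copy of the imprinted Dlk1-Dio3 region and carry snoRNAs and microRNAs in their introns and exons, whereas ribosomal RNA is made by RNA polymerase I in the nucleolus and outweighs every other RNA of a cell.

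The deposited counts summed to between 1140756 and 1947416 per hippocampal library (median 1560670) and to between 1188447 and 2095352 per cortical library (median 1718002). A count was seen for 10223 to 15750 genes per hippocampal and 11362 to 15140 per cortical library, and mitochondrial mRNAs held 5.18% to 7.46% and 5.496% to 7.32% of counts. The 8 libraries of donors 9 and 10 stood apart, because they carried Y-linked transcripts and little *Xist*, whereas the study's methods describe the mice as female. The summed counts of *Ddx3y*, *Eif2s3y*, *Uty* and *Kdm5d* were 217 to 276 in their hippocampal libraries against 0 to 27 in those of the other 8 donors, and 139 to 272 against 0 to 4 in the cortex. *Xist* had 14 to 42 counts against 641 to 1167, and 6 to 17 against 487 to 1191. Both conditions of these donors shared this feature, and each result is therefore also given without them where that changed a call. The dentate gyrus gene *Prox1* had a median of 86.6 counts per 1000000 counts of the library (CPM) in hippocampal and 20.3 in cortical libraries, and the cortical layer gene *Lamp5* had 38.7 and 88.3. Of the lists of tissue markers, 4 of 7 hippocampal genes were higher in the hippocampus at an edgeR adjusted p under 0.05 and 0 lower, and of 6 cortical layer genes 2 were lower there and 1, *Fezf2*, was higher, where 2.85% of all genes passed. At an unadjusted p under 0.05, 4 of the 6 cortical genes were lower and 2 higher, so they did not all go with the labels. Marker genes of the choroid plexus (median 1275 to 1535 summed CPM in the hippocampal groups against 46.3 to 135 in the cortical groups) and of the striatum (82.1 to 117 against 688 to 707) also differed between regions. In such bulk tissue, fewer cells of a type and less RNA per cell cannot be told apart.

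On GRCm38, the build of the counts, *Gm42418* (ENSMUSG00000098178, chr17:39846958-39848788, plus strand) is typed as a long intergenic RNA, but 1822 of its 1831 bp are covered on the opposite strand by an annotated ribosomal RNA gene, CT010467.1, which received 278 counts over all 40 libraries. The opposite-strand gene *AY036118* covers 923 bp of it and received 0 counts. The strand setting of the counting is not given in the sources used here, but the counts of this stretch were thus almost wholly those of *Gm42418*. *n-R5-8s1* (ENSMUSG00000065922, chr18:73533403-73533550, minus strand) is a 5.8S-type ribosomal RNA gene of 148 bp. Ribosomal sequences occur in near-identical copies, so the counts of both ribosomal transcripts are uncertain in which copy they stand for.

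Of the long noncoding RNAs, *Malat1* (ENSMUSG00000092341) is a single exon at chr19:5795690-5802672 on the minus strand, and *Neat1* (ENSMUSG00000092274) lies beside it at chr19:5824708-5845478 on the same strand, also as a single exon. *Meg3* (ENSMUSG00000021268, chr12:109541001-109571726), *Rian* (ENSMUSG00000097451, chr12:109603940-109661716) and *Mirg* (ENSMUSG00000097391, chr12:109729764-109749460) follow each other on the plus strand. *Miat* (ENSMUSG00000097767) is at chr5:112213228-112229395 on the minus strand, and *Snhg11* (ENSMUSG00000044349), a snoRNA host gene that this annotation types as protein coding, is at chr2:158375638-158386145 on the plus strand. The transcripts overlap small RNA genes that have their own entries in the count tables, with 13 snoRNA and 4 microRNA genes within *Rian*, 15 microRNA genes within *Mirg*, 2 microRNA genes within *Meg3* and 2 snoRNA genes within *Snhg11*. Those that share exon bases with these transcripts received 0 counts.

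The start regions of the 3 most abundant long noncoding RNAs are shown because their levels dominate the results (RefSeq, GRCm38.p6, 250 bases before to 50 after each start, 5′ to 3′ on the gene's strand). Capitals mark matches on either strand to the cAMP response element (TGACGTCA) or its core (TGACG), to the TATA box (TATAAA), to the GC box (written GGGCGG) or to the CCAAT box (its name spells its letters), and the full element holds the core on both strands. The windows are chr19:5802623-5802922 on the minus strand for *Malat1*, chr12:109540746-109541045 on the plus strand for *Meg3* and chr2:158375463-158375762 on the plus strand for *Snhg11*.
Malat1: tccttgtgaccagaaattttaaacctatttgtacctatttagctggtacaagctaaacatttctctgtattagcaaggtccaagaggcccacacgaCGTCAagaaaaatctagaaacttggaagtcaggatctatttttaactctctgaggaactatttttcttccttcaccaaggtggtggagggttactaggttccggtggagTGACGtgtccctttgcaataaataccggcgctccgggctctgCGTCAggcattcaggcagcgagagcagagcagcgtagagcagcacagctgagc
Meg3: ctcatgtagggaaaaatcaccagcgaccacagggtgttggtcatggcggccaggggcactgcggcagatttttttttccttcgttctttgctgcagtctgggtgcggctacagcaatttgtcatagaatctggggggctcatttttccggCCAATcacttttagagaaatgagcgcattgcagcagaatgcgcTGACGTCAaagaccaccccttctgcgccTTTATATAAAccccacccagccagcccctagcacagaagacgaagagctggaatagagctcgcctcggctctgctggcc
Snhg11: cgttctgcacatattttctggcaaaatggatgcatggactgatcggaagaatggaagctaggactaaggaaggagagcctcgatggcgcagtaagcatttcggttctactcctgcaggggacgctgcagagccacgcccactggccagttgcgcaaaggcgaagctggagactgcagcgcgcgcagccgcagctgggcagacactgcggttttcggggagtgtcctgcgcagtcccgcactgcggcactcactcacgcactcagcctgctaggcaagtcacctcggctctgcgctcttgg

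With 0 as the first transcribed base, the *Meg3* window held the full cAMP response element from base -57 to -50, the TATA box on the plus strand from -25 to -20 and on the minus strand from -29 to -24, and the CCAAT box from -100 to -96. The *Malat1* window held 3 cores, starting at -154, -45 and -3, and the *Snhg11* window held 0 matches to these letters. Of 32851 RefSeq promoters of this length, 1.79% held the full element, 20.8% its core, 13.6% the TATA box, 35.7% the GC box and 37.4% the CCAAT box. These matches describe letters in a window and say nothing of binding. Of the 9 RNAs, 6 have a promoter entry, the other three with one being *Rian*, *Mirg* and *Miat*.

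Together the 9 RNAs held 15.7% ± 2.82 of all counts in the hippocampus (SD, n = 20 libraries, range 11.4% to 20.6%) and 15.4% ± 2.32 in the frontal cortex (SD, n = 20, 12.1% to 20.6%). Most of that was *Gm42418*, with 13.3% ± 2.86 and 13.1% ± 2.38, while the 7 long noncoding RNAs held 2.43% ± 0.185 and 2.32% ± 0.194. By mean CPM, from here on after TMM scaling of the library sizes, *Gm42418* ranked 1 of 17529 genes tested in the hippocampus and 1 of 17873 in the cortex. *Meg3* ranked 6 in both regions, *Malat1* 8 in both and *Snhg11* 18 and 17. *Rian* ranked 849 and 799, *Miat* 953 and 1477, *Neat1* 1914 and 2246, *Mirg* 3116 and 2920, and *n-R5-8s1* 3313 and 4325. In these libraries the set thus ran from the most counted transcripts to genes of middle level. The study's resource list names an mRNA library kit, and the part of library preparation in the *Gm42418* share was not tested.

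Length changed the order. Per kilobase of exon, hippocampal levels were 73483 CPM for *Gm42418*, 1351 for *Malat1*, 656 for *Meg3*, 335 for *n-R5-8s1*, 304 for *Snhg11*, 16.5 for *Miat*, 9.33 for *Rian*, 7.21 for *Mirg* and 4.08 for *Neat1*. In the cortex they were 71933, 1243, 627, 240, 325, 11.7, 9.74, 7.53 and 3.53 CPM per kilobase in the same order. *Malat1*, second to *Meg3* in counts, was therefore above it per length, and in the cortex *Snhg11* stood above *n-R5-8s1*. This order holds for reads from the whole transcript, as the labelled kit gives, while for the 3′ kit that the study's resource list also names, a division by exon length would not give a level. The neighbours *n-R5-8s1* and *Snhg11* lay within each other's spread in the hippocampus (SD 231 and 68.0 CPM per kilobase), and in the cortex their gap was within the SD of *n-R5-8s1* but not that of *Snhg11* (141 and 47.9). Likewise *Rian* and *Mirg* lay within each other's spread in the hippocampus (SD 2.16 and 2.67), and in the cortex their gap was within the SD of *Mirg* but not that of *Rian* (2.24 and 1.66). *Meg3* stood far above *Rian* and *Mirg* per kilobase, although the 3 are read in tandem.

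The plot of levels by library shows each of the 9 RNAs in the 4 groups. *Malat1*, the speckle RNA, measured between 8123 and 12192 CPM (median 9521) in pre-KD hippocampus and between 6710 and 11031 (median 9187) post-KD. In the frontal cortex it measured 7805 to 11158 (median 8808) pre-KD and 5636 to 9808 (median 8406) post-KD. Its groups overlapped widely, and the lowest library of both post-KD groups was that of donor 2. *Neat1*, the paraspeckle scaffold, measured 4.49 to 118 CPM (median 83.5) in pre-KD and 23.2 to 149 (median 85.3) in post-KD hippocampus, and 28.9 to 112 (median 60.3) and 46.8 to 131 (median 74.7) in the cortex. The hippocampal pre-KD library of donor 9 stood at the bottom with 7 counts, where the next lowest value over all *Neat1* libraries was 23.2 CPM. The same library had the lowest *Gm42418* and the highest *Malat1* and *Miat* of its group. *Miat*, a nuclear RNA of neurons, measured 122 to 214 CPM (median 160) and 92.8 to 199 (median 156) in hippocampus, and 72.0 to 147 (median 99.9) and 53.4 to 183 (median 114) in cortex.

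**Figure D1:**
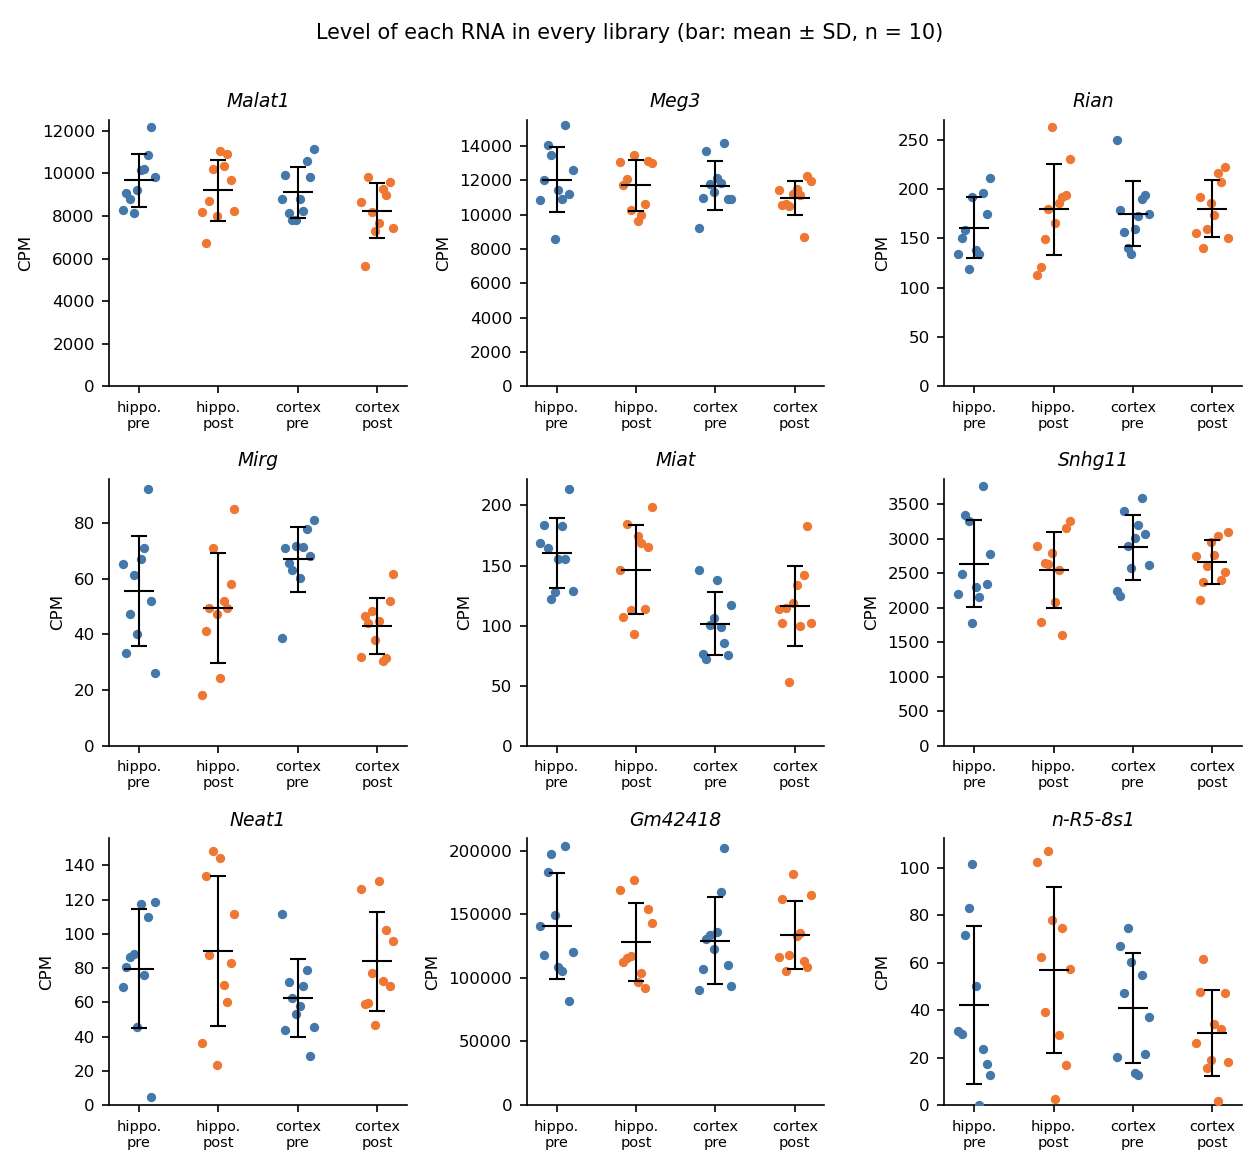
Each panel plots 1 RNA in CPM, with 1 point per library for the pre-KD (blue) and post-KD (orange) groups of hippocampus and frontal cortex, and the black bar is the mean ± SD (n = 10). Groups overlap in every panel, and the cortical *Mirg* groups are the farthest apart relative to their spread (30.4 to 61.6 CPM post-KD against 38.6 to 81.1 pre-KD).

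Of the imprinted RNAs, *Meg3* measured 8577 to 15195 CPM (median 11709) in pre-KD and 9643 to 13460 (median 11899) in post-KD hippocampus, and 9228 to 14154 (median 11542) and 8698 to 12250 (median 11159) in the cortex. *Rian*, which hosts many of the snoRNAs of the region, measured 119 to 211 (median 155) and 113 to 263 (median 183), then 134 to 250 (median 174) and 140 to 222 (median 180). *Mirg*, the host of a microRNA cluster, measured 26.1 to 92.1 (median 56.6) and 18.1 to 85.2 (median 49.4) in the hippocampus. In the cortex it measured 38.6 to 81.1 (median 69.7) pre-KD and 30.4 to 61.6 (median 44.5) post-KD. The pre-KD and post-KD groups of these RNAs overlapped in both regions, those of cortical *Mirg* through the low pre-KD library of donor 1 and the high post-KD library of donor 10 among others. *Snhg11* measured 1774 to 3763 (median 2415) and 1606 to 3267 (median 2642) in hippocampus, and 2165 to 3587 (median 2959) and 2107 to 3098 (median 2680) in cortex.

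*Gm42418* varied most relative to its counting error. The share of counts on *Gm42418* ran from 8.64% to 17.96% in the hippocampus and from 9.79% to 18.02% in the cortex, or 81638 to 203817 CPM (median 130837) and 91835 to 177248 (median 116379) in hippocampus and 90356 to 202293 (median 126539) and 105619 to 181836 (median 125752) in cortex. Its coefficient of variation within a group was 19.95% to 29.8%, where counting alone would give 0.207% to 0.231%. Even the steadier *Meg3* and *Malat1* varied by 9.04% to 15.7% and 12.9% to 15.7%, against at most 0.765% and 0.8599% from counting. *n-R5-8s1* ran from 0 to 102 CPM (median 30.5) and from 2.43 to 107 (median 59.8) in hippocampus, and from 12.4 to 74.7 (median 41.9) and from 1.75 to 61.3 (median 29.2) in cortex. The 0 was that of the hippocampal pre-KD library of donor 7, whose 1370451 counts allow a level of up to 2.19 CPM of the library total (3 counts, counting error only). *n-R5-8s1* and *Mirg* rested on 54.2 to 109 counts per library on average, and the coefficient of variation of *n-R5-8s1* was 56.7% to 79.2% where counting alone would give 10.8% to 13.6%. The spread between pools thus exceeded counting error in the less counted RNAs too.

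Whether the post-KD stool changed these RNAs was tested over all genes with edgeR's quasi-likelihood test. In the hippocampus, 0 of the 9 RNAs reached an unadjusted p under 0.05, where 10.1% of the 17529 genes tested did. After Benjamini-Hochberg adjustment, 0 of 9 passed, against 1 gene in all, or 0.00570%. With limma-voom 0 of 9 also had an unadjusted p under 0.05, against 765 of the 17529 genes. The log2 fold changes (post-KD minus pre-KD) of the long noncoding RNAs were -0.07 for *Malat1* (SE 0.07), 0.18 for *Neat1* (SE 0.28), -0.13 for *Miat* (SE 0.19), -0.04 for *Meg3* (SE 0.07), 0.16 for *Rian* (SE 0.18), -0.16 for *Mirg* (SE 0.31) and -0.05 for *Snhg11* (SE 0.10). Each of these differences lay within 1 standard error or close to it. *n-R5-8s1* had 0.44 (SE 0.39).

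*Gm42418* had a log2 fold change of -0.14 in the hippocampus (SE 0.07, edgeR adjusted p = 0.598, unadjusted 0.0687), with lower values post-KD in 6 of 10 donors. Its p depended on the model and on the donors included. With the donor as a block edgeR gave -0.11 with an unadjusted p of 2.5e-05 (adjusted 0.434), and without donors 9 and 10 it gave -0.29 with an unadjusted p of 6.0e-05 (adjusted 0.151). With no gene filter, a fit that called 1291 genes, it passed with an edgeR adjusted p of 0.000823. Leaving out only donor 1, 5, 9 or 10 also brought the unadjusted edgeR p under 0.05 (0.01501, 0.0154, 0.00103 and 0.0193). In the other direction, the change was -0.01 without donor 8 (p = 0.854), -0.06 without donor 4 (p = 0.423) and -0.07 without donor 3 (p = 0.342). limma-voom gave -0.11 (SE 0.15, unadjusted p = 0.468), and permuting the condition labels of the 20 libraries gave p = 0.509. The SD of log2 CPM was 0.43 pre-KD and 0.34 post-KD, so the difference was smaller than the spread between pools.

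In the frontal cortex, 3 of the 9 RNAs reached an unadjusted p under 0.05 in edgeR, where 9.68% of 17873 genes did. After adjustment 0 of 9 passed, against 1 gene in all, or 0.00560%. *Mirg* was lower post-KD, at 42.9 ± 10.1 against 66.9 ± 11.8 CPM (SD, n = 10), a log2 fold change of -0.64 (SE 0.21, edgeR unadjusted p = 0.0038, adjusted p = 0.122). The post-KD library had the lower value in 10 of 10 donors. limma-voom gave -0.66 with an unadjusted p of 0.00195 (adjusted 0.671). Without donors 9 and 10 the difference was -0.70, and leaving out any 1 donor kept the edgeR change between -0.68 and -0.58. Permutation of the log2 CPM gave p = 0.00056. The *Mirg* difference did not pass adjustment over all genes in edgeR, limma-voom or DESeq2.

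**Figure D2:**
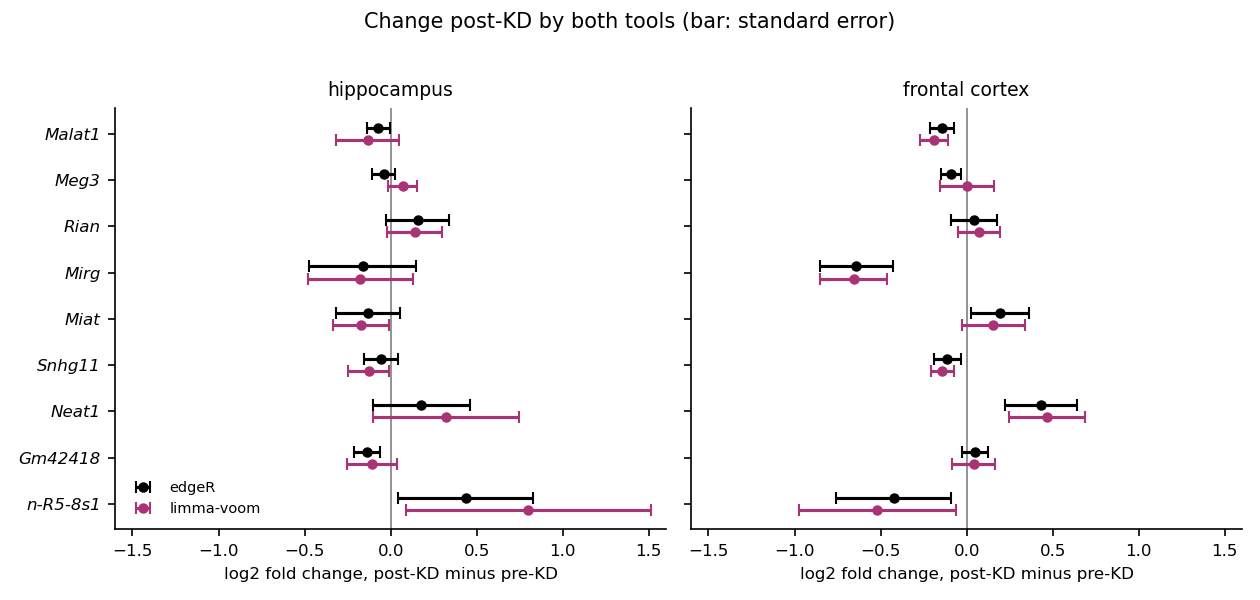
Points are log2 fold changes post-KD minus pre-KD for each of the 9 RNAs by edgeR (black) and limma-voom (purple), with bars of 1 standard error. Cortical *Mirg* sits at -0.64 and -0.66 with both tools, and the bars of *Gm42418* are shorter in edgeR (0.07 in the hippocampus) than in limma-voom (0.15).

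The other 2 calls of the cortex were weaker. *Malat1* was lower post-KD, at 8249 ± 1277 against 9108 ± 1195 CPM (SD, n = 10), a log2 fold change of -0.14 (SE 0.07, edgeR unadjusted p = 0.0369, adjusted p = 0.442), with lower values in 7 of 10 donors. Permutation of the log2 CPM gave p = 0.138, and the edgeR p exceeded 0.05 without donor 2 (-0.08, p = 0.210), donor 6 (-0.14, p = 0.0622) or donor 10 (-0.09, p = 0.193). *Neat1* was higher post-KD, at 84.0 ± 28.9 against 62.5 ± 22.9 CPM, a log2 fold change of 0.43 (SE 0.21, edgeR unadjusted p = 0.0426, adjusted p = 0.476), in 8 of 10 donors. Permutation gave p = 0.0707, and the edgeR p exceeded 0.05 when donor 2, 6, 8, 9 or 10 was left out (0.0507, 0.140, 0.0533, 0.0787 and 0.0987). Without donors 9 and 10 together neither was called, with unadjusted p of 0.168 for *Malat1* and 0.183 for *Neat1*.

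The remaining cortical changes were -0.09 for *Meg3* (SE 0.06), 0.04 for *Rian* (SE 0.13), 0.19 for *Miat* (SE 0.17), -0.11 for *Snhg11* (SE 0.08), 0.05 for *Gm42418* (SE 0.08) and -0.42 for *n-R5-8s1* (SE 0.34). Of the 3 RNAs of the imprinted region, *Mirg* was thus called while *Meg3* and *Rian* were not, and the difference between these RNAs was not tested. *Meg3* reached an unadjusted p of 0.0296 without donor 1 (-0.13) and of 0.0187 without donors 9 and 10 (-0.16), but its change was -0.03 without donor 8 (p = 0.596) and -0.06 without donor 3 (p = 0.340). *Gm42418* reached one of 0.0217 with the donor as a block (0.07) and of 0.0170 without donor 8 (0.16). *Snhg11* had an unadjusted p of 0.0421 in limma-voom (-0.14), where 4 of 9 RNAs and 5.57% of genes were under 0.05. None of these passed adjustment.

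The same cohorts gave both regions, so hippocampus and cortex were compared within cohorts, and region and count table cannot be told apart. In edgeR 3 of the 9 RNAs passed the adjusted threshold, where 2.85% of 19422 genes did (169 higher and 385 lower in the hippocampus). The median log2 difference of all genes was -0.17 in this fit and -0.0018 in limma-voom (208 higher and 306 lower), and without the cohort term 905 genes were higher and 1195 lower. *Miat* differed most of the 3. It measured 91.8 to 212 CPM (median 158) in the hippocampus and 53.7 to 186 (median 105) in the cortex on a common scale, with means of 152 ± 32.9 and 110 ± 30.7 (SD, n = 20). The difference was 0.48 (SE 0.14, edgeR adjusted p = 0.0173, limma-voom adjusted p = 0.0239, where 2.65% of genes passed), with the higher value in the hippocampus in 17 of 20 cohorts and a permutation p of 0.00096. Without donors 9 and 10 it was 0.45 with an edgeR adjusted p of 0.104 (permutation p = 0.00253), and leaving out donor 2, 3, 7 or 9 alone gave edgeR adjusted p-values of 0.0507, 0.0883, 0.0602 and 0.0505.

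*Malat1* was higher in the hippocampus by 0.09 on the log2 scale (SE 0.03, edgeR adjusted p = 0.0278, limma-voom adjusted p = 0.00729), in 13 of 20 cohorts, with ranges of 6625 to 12098 CPM (median 9400) and 5684 to 11338 (median 8809). A permutation of signs gave p = 0.0405. Without donors 9 and 10 the edgeR adjusted p was 0.0938, and without donor 4, 5, 6, 7, 8 or 9 alone it was 0.0898, 0.141, 0.478, 0.216, 0.102 and 0.161. *Snhg11* was lower in the hippocampus by 0.14 (log2 difference -0.14, SE 0.04, edgeR adjusted p = 0.0413), in 12 of 20 cohorts, with ranges of 1620 to 3713 CPM (median 2560) and 2125 to 3652 (median 2794). Permutation gave p = 0.0336. Its adjusted p was 0.181, 0.249, 0.263 and 0.192 in edgeR without donor 5, 6, 7 or 8, and 0.276 in limma-voom. Without the cohort term, edgeR gave adjusted p-values of 0.358 for *Malat1*, 0.346 for *Snhg11* and 0.00476 for *Miat*. The other RNAs did not pass, with log2 differences of 0.03 for *Meg3*, -0.11 for *Rian*, -0.12 for *Mirg*, 0.07 for *Neat1*, -0.01 for *Gm42418* and 0.27 for *n-R5-8s1*. Choroid plexus and striatum markers moved with region as given above, and their part in these differences was not tested.

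**Figure D3:**
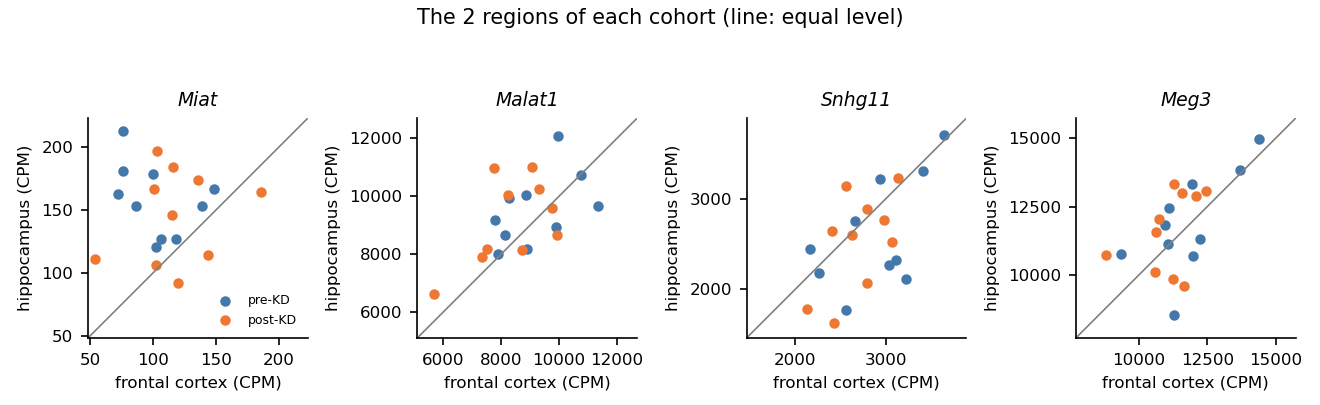
Each point is 1 cohort, with its frontal cortical level on the x axis and its hippocampal level on the y axis in CPM on a common scale, for pre-KD (blue) and post-KD (orange) cohorts, and the grey line marks equal levels. *Miat* lies above the line in 17 of 20 cohorts, *Malat1* in 13, *Snhg11* in 8 and *Meg3* in 14.

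Whether the change post-KD differed between the regions was tested as an interaction with a term for each cohort. In edgeR 1 of the 9 RNAs passed adjustment, where 0.0154% of 19422 genes did. This was *Gm42418*, whose hippocampal change minus its cortical change was -0.18 on the log2 scale (SE 0.02, edgeR adjusted p = 3.5e-20). The SD of the difference between regions over cohorts was 0.46 pre-KD and 0.38 post-KD. limma-voom gave -0.18 with SE 0.18 (unadjusted p = 0.313), permutation of the condition labels of cohorts gave p = 0.348, and edgeR without the cohort term gave an unadjusted p of 0.189. A difference between regions was therefore not detectable by these 3 tests. *n-R5-8s1* had 1.21 (SE 0.55, edgeR unadjusted p = 0.0268, adjusted p = 1), which without the cohort term became 0.86 with an unadjusted p of 0.141, and for *Mirg* the interaction was 0.46 (SE 0.44, unadjusted p = 0.288), so its change is not shown to differ between regions.

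Before any adjustment, levels of some RNAs correlated between the 2 libraries of a cohort. Over the 20 cohorts, hippocampal and cortical log2 CPM of *Malat1* correlated with r = 0.607 (Spearman rho 0.496, permutation p = 0.00478 and 0.0278), and r was 0.516 within pre-KD and 0.630 within post-KD cohorts. For *Snhg11* r was 0.543 (rho 0.474, permutation p = 0.0137 and 0.0368), and for *Meg3* 0.520 (rho 0.523, permutation p = 0.0190 and 0.0186), which with raw shares of counts was 0.369 and no longer past 0.05. Leaving out the 2 cohorts farthest from the hippocampal median gave 0.344 for *Malat1*, 0.520 for *Snhg11* and 0.498 for *Meg3*. These 3 were also the highest of the 9 relations computed (none adjusted). The median r of the 4453 genes averaging at least 50 counts was 0.031, and 0.674%, 1.39% and 1.80% of them had an r at least as high. *Neat1* had r = 0.459 (permutation p = 0.0433) but rho = 0.149, and r was -0.166 without the 2 farthest cohorts and 0.115 without donors 9 and 10, so that relation rests on those cohorts. The r of the others was 0.301 for *Gm42418*, 0.227 for *Mirg*, 0.164 for *n-R5-8s1*, 0.132 for *Rian* and -0.039 for *Miat*, with permutation p-values of 0.195 to 0.8702.

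Between libraries of a region, some of the 9 RNAs moved together, and the correlations below are descriptions over 20 libraries that share 1 library size. The plot of correlations gives all 36 pairs, of which 17 had the same sign in both regions and 3 an r beyond 0.5 with the same sign in both. These 3 joined *Meg3*, *Snhg11* and *Gm42418*. *Meg3* and *Snhg11* had r = 0.792 in the hippocampus and 0.728 in the cortex, and 0.658 and 0.606 with raw shares of counts in place of CPM. Among 4452 other genes, *Snhg11* was the second most like *Meg3* by mean r over both regions, after *Map1a*. *Meg3* with *Gm42418* had 0.642 and 0.537, which fell to 0.324 and 0.174 with raw shares, and *Snhg11* with *Gm42418* had 0.677 and 0.572, which fell to 0.511 and 0.335. A library with much *Gm42418* thus had high CPM of both other RNAs, and the likeness was lower in raw shares.

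*Malat1* went the other way. With *Gm42418* its r was -0.483 in the hippocampus and -0.456 in the cortex, and -0.662 and -0.687 with raw shares. With ribosomal counts left out of these raw totals it was -0.529 and -0.577, weaker than with raw shares in both regions. Within cortical pre-KD libraries it was -0.152 and within post-KD ones -0.776. Without donors 9 and 10 it was -0.376 and -0.264. The plot against the *Gm42418* share shows these libraries as rings.

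**Figure D4:**
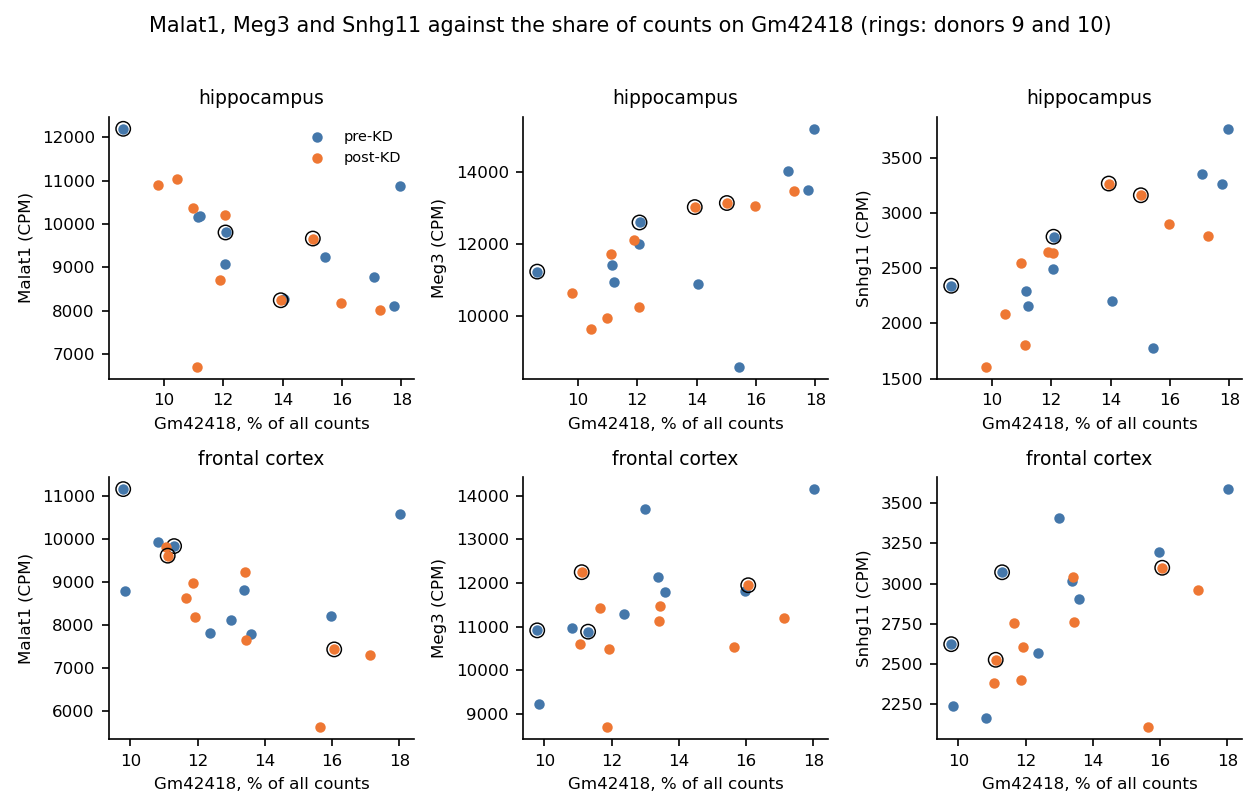
CPM of *Malat1*, *Meg3* and *Snhg11* (columns) against the share of counts on *Gm42418* in percent, with 1 point per library of the hippocampus (top) and frontal cortex (bottom), pre-KD in blue, post-KD in orange and rings around donors 9 and 10. *Malat1* tends to be lower and *Meg3* and *Snhg11* higher along a share that runs from 8.64% to 18.02%.

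The imprinted RNAs, though read in tandem, did not follow each other in both regions. *Meg3* with *Rian* had r = 0.0298 in the hippocampus and -0.343 in the cortex, *Rian* with *Mirg* 0.194 and -0.362, and *Meg3* with *Mirg* 0.163 and 0.542. Within hippocampal pre-KD and post-KD libraries *Rian* with *Mirg* had -0.411 and 0.636, a difference that was not tested. Cortical *Meg3* with *Mirg* had 0.338 without the 2 libraries farthest from the median of *Meg3*. *Malat1* and *Neat1*, neighbours on chromosome 19, had -0.213 and -0.194, which turned to 0.268 and 0.0993 without donors 9 and 10. Within hippocampal pre-KD and post-KD libraries this pair had -0.537 and 0.187. *Miat* with *n-R5-8s1* had -0.497 in the hippocampus and 0.0260 in the cortex, and *Mirg* with *Neat1* had 0.118 and -0.512, and the difference between the regions was not tested.

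**Figure D5:**
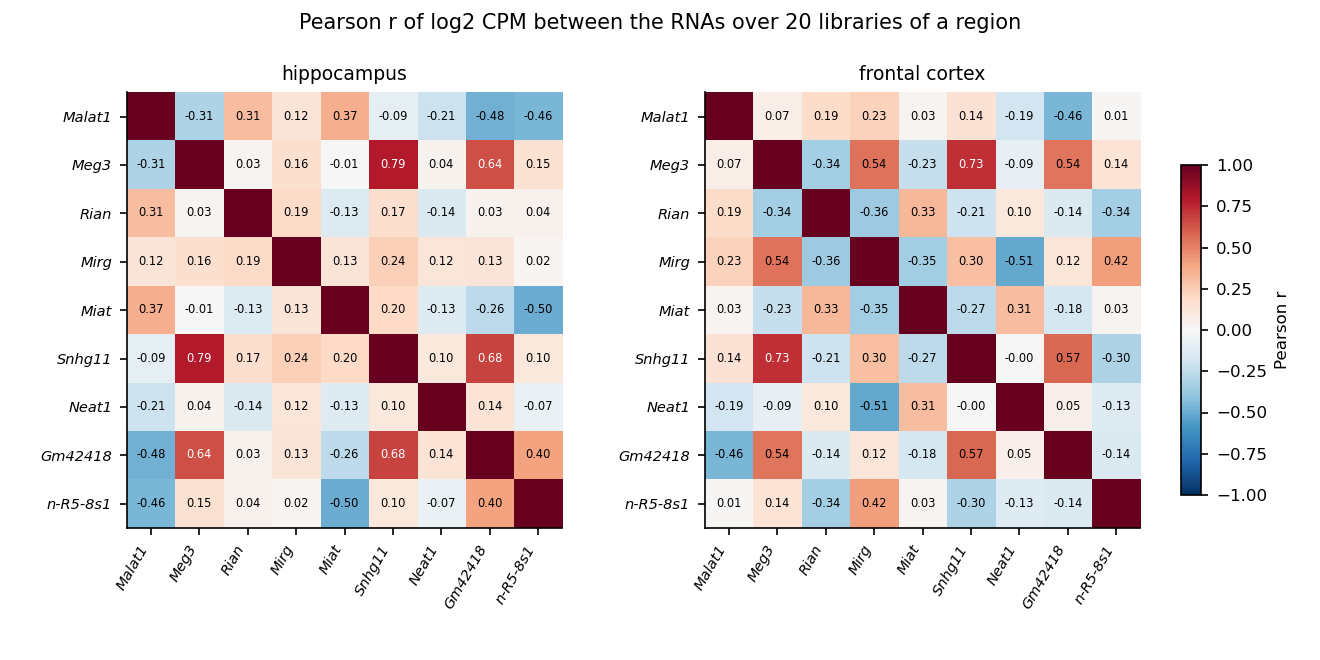
Colour and printed number give Pearson r of log2 CPM for each pair of the 9 RNAs over the 20 libraries of the hippocampus (left) and frontal cortex (right), on a scale from -1 to 1. The red block of *Meg3*, *Snhg11* and *Gm42418* appears in both regions (0.537 to 0.792), and *Malat1* with *Gm42418* is blue in both (-0.483 and -0.456).

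Several measures of the libraries moved with these RNAs, and their part in the movements was not tested. The number of genes with a count had an r of 0.818 in the hippocampus and 0.465 in the cortex with *Meg3*, 0.710 and 0.441 with *Snhg11*, 0.650 and 0.772 with *Gm42418*, and -0.314 and -0.489 with *Malat1*. Within cortical pre-KD and post-KD libraries it was 0.894 and -0.174 for *Meg3* and 0.824 and -0.192 for *Snhg11*, and the difference between the conditions was not tested. The summed share of 6 oligodendrocyte markers (*Mbp* and other myelin genes) had -0.782 and -0.411 with *Meg3*, -0.686 and -0.321 with *Snhg11*, and -0.660 and -0.603 with *Gm42418*. Within cortical pre-KD and post-KD libraries it was -0.708 and 0.0126 for *Meg3* and -0.704 and 0.367 for *Snhg11*, a difference that was not tested either. The summed share ranged from 1820 to 3782 CPM of the library total in the hippocampal and from 1815 to 3841 in the cortical libraries. Neuronal markers had 0.672 and 0.0775 with *Malat1* and -0.611 and -0.405 with *Gm42418*. The share of paraspeckle and speckle protein genes had 0.201 in the hippocampus and 0.601 in the cortex with *Malat1*, with 0.712 and -0.557 within pre-KD and post-KD hippocampal libraries and 0.493 and 0.612 within cortical ones. That of mitochondrial mRNAs had 0.0169 and 0.548 with *Malat1*, with 0.630 and -0.272 within pre-KD and post-KD hippocampal libraries and 0.874 and 0.440 within cortical ones.

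Among 4453 genes averaging at least 50 counts, and with the 9 RNAs themselves left out, those most like *Malat1* by mean r over both regions were *Gas5* (0.578), a snoRNA host RNA, *Ywhae* (0.573), *Tmsb4x* (0.569), *Rps23* (0.557) and *Dlg1* (0.547). Those most like *Meg3* were *Map1a* (0.762), a microtubule protein gene of neurons, *Snord89* (0.757), *Stub1* (0.752), *Pnmal2* (0.742) and *Sub1* (0.724). Those most like *Gm42418* were *Nrgn* (0.811), a calmodulin-binding protein gene of neurons, the mitochondrial tRNA gene *mt-Tp* (0.808), *Mt3* (0.753), *Eno2* (0.737) and *Apoe* (0.735). The best mean r of *Malat1* was thus lower than those of the other two. The most opposite genes had a mean r of -0.661 for *Malat1*, -0.688 for *Meg3* and -0.807 for *Gm42418*.

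Genes around the 9 RNAs were followed as lists, and their counts at an unadjusted p under 0.05 stand against 10.1% of all genes in the hippocampus and 9.68% in the cortex. Of the 5 protein-coding neighbours of the imprinted region that were tested, 0 had an unadjusted edgeR p under 0.05 post-KD in either region, with medians of -0.32 and -0.49 against -0.01 and 0.01 for all genes. In the hippocampus *Begain* went the other way (0.34, SE 0.33), and *Dio3*, at 4.24 CPM, had an SE of 1.26. *Dlk1*, which is read from the paternal copy, had -0.49 in the cortex (SE 0.42, edgeR unadjusted p = 0.246) at 18.1 CPM. Of 18 paraspeckle and speckle protein genes, 1 was lower in the hippocampus at an unadjusted p under 0.05. In the cortex 2 were higher and 2 lower, among them the speckle factor *Srsf2* (-0.56, SE 0.24, p = 0.0235) and *Hnrnpk* (0.49, SE 0.16, p = 0.00228). The edgeR adjusted p-values of these 2 genes were 0.335 and 0.122, and the medians of the list were -0.04 in both regions.

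Of 20 genes of RNA polymerase I and ribosome biogenesis, 0 were called in the hippocampus and 1 in the cortex (where 9.68% of all genes were), *Polr1d*, a polymerase subunit gene (0.70, SE 0.32, unadjusted p = 0.0295), with list medians of -0.08 and 0.0005. Of 9 genes of nuclear RNA decay 0 were called in either region (medians 0.27 and -0.08). Among 26 and 28 other long noncoding RNAs tested, the calls were *Gas5* in the hippocampus (-0.55, SE 0.20, unadjusted p = 0.00709) and *Nespas* in the cortex at 0.356 CPM, with medians of 0.10 and 0.05. Of 6 and 7 other structural RNAs, the mitochondrial ribosomal RNA *mt-Rnr2* was lower in the hippocampus (-0.09, SE 0.04, p = 0.0353) and *Rn7s2*, at 0.422 CPM, in the cortex, with medians of -0.17 and 3.8e-05. Of 8 mitochondrial mRNAs, 1 was higher and 1 lower in the hippocampus and 3 higher and 1 lower in the cortex, against 10.1% and 9.68% of all genes (medians 0.04 and 0.01), such as *mt-Nd1* (0.18, SE 0.05, p = 0.0012) and *mt-Nd6* (-1.02, SE 0.29, p = 0.000659) in the cortex. None of these genes passed edgeR's adjusted threshold.

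Between the regions, the polymerase I factor gene *Taf1d* (1.01, SE 0.29, edgeR adjusted p = 0.0257) and *Xist* (0.31, SE 0.09, adjusted p = 0.0137) were higher in the hippocampus, and *mt-Rnr1* (-0.08, adjusted p = 0.0168), *mt-Nd2* (-0.11, adjusted p = 0.000218) and *mt-Nd1* (-0.10, adjusted p = 0.00778) were lower. Of the imprinted neighbours, the speckle proteins and nuclear RNA decay, 0 of 5, 0 of 18 and 0 of 9 genes passed, where 2.85% of all genes did. In the interaction, *mt-Rnr2* (-0.15, edgeR adjusted p = 3.6e-05) and *mt-Nd4* (0.16, adjusted p = 0.0348) passed beside *Gm42418*, all 3 being among the most counted genes, and limma-voom passed 0 genes after adjustment and 661 (3.40%) at an unadjusted p under 0.05. Of 10 lists of cell type and tissue markers, 0 genes passed the adjusted threshold post-KD in either region. At the unadjusted threshold, which 10.1% of all genes passed in the hippocampus, 1 of 6 oligodendrocyte genes and 2 of 7 hippocampal genes were higher there, and 1 of 6 neuronal, 1 of 5 striatal and 1 of 7 hippocampal genes were lower. In the cortex, where 9.68% of all genes passed, 2 of 4 blood, 1 of 6 microglial and 1 of 5 striatal genes were higher and 0 were lower. The calls were 0 for astrocyte, endothelial, choroid plexus and cortical layer genes in both.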

How the data were processed

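Total RNA of hippocampus and frontal cortex was the input of 40 sequenced libraries. Per the labels the libraries were made with a TruSeq kit, while the study's resource list also names a 3′ kit. For each region the authors deposited a table of raw counts per Ensembl gene, and the submitters' processing notes name FastQC 0.11.5, STAR 2.5.2a, SAMtools 1.3, HTSeq 0.6.0 and mm10. The annotation release and strand setting of the counting are not given in the sources used here. No unassigned reads are listed, and 47224 of 47643 identifiers were matched to GENCODE mouse release 21. The members and lists were chosen with earlier results of these data known.

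Genes with at least 10 summed counts entered the quasi-likelihood test of edgeR 4.0.16 (TMM scaling, Benjamini-Hochberg over all genes of a fit, R 4.3.3) for post-KD against pre-KD in each region. The same test compared the regions and their changes with a term for each of the 20 cohorts, and thresholds of 0.05 were set on unadjusted and on adjusted p. edgeR shared the spread over genes with 96.4 and 58.5 prior degrees of freedom in the diet fits and without bound in the others. limma-voom (limma 3.58.1) and permutation tests of log2 CPM (prior count 2, two-sided, 100000 resamples, scipy 1.17.1) were added after the data had been seen, as was leaving out donors 9 and 10. The alternatives tried were DESeq2 1.42.0, no gene filter, filterByExpr, RLE size factors, library totals, ribosomal counts left out of library sizes, the donor or cohort block added or removed, and each donor left out in turn. Correlations between regions were permuted over cohorts, and exact binomial 95% intervals of shares cover counting error. edgeR was run on simulated counts, where in both diet fits the share of unchanged genes with an unadjusted p under 0.05 exceeded 0.05, as did their share among the genes that passed adjustment, so edgeR's p-values of these fits may be too small.

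Donors pair the cohorts by design, since the same donor gave both stool samples. After removing condition means, both libraries of a donor correlated across genes with r of -0.0279 to 0.0297 (hippocampus) and -0.0561 to 0.0316 (cortex), with 0 of 10 pairs above 0.1 in either. Of 190 pairs of libraries per region, 0 were identical. The genes named are the 9 RNAs, the genes of 7 lists (imprinted neighbours, other long noncoding RNAs, other structural RNAs, paraspeckle and speckle proteins, RNA polymerase I, nuclear RNA decay and mitochondrial mRNAs) that were among the 3 smallest p-values of their list, and the 5 genes most like *Malat1*, *Meg3* and *Gm42418* by mean r. Of the 3 genes per list, mainly those past a threshold are given. Values of some single list members are not reported here. Marker genes and Y-linked genes were named to describe the libraries, the latter after their values were seen. Python 3.11.15, numpy 2.4.6, pandas 2.3.3 and matplotlib 3.10.9 were used for the summaries and plots.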

Additional observations from a re-analysis of the deposited data

Results flagged for a closer look

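Within groups of 10 libraries, 3 values lay farther from the rest than Dixon's 95% critical value for this n allows, among 36 groups looked at, where chance alone gives about 5%. *Meg3* measured 8698 CPM in the post-KD cortical library of donor 8, below the 10490 to 12250 of the other libraries. *Rian* measured 250 CPM in the pre-KD cortical library of donor 1, above the 134 to 194 of the others, and *Mirg* measured 38.6 CPM in that same library, below the 60.1 to 81.1 of the others. *Rian* was thus high and *Mirg* low in 1 library, although both are read from the same imprinted region.

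The change of *Gm42418* post-KD differed between the regions by -0.18 on the log2 scale (hippocampus minus cortex) in edgeR's interaction test (adjusted p = 3.5e-20). With limma-voom the unadjusted p was 0.313 and with permutation over cohorts it was 0.348.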

How the results depend on the processing

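Of 854 values recomputed under alternatives, 706 kept both direction and side of the threshold (counts and untested values, their size), 50 lost and 17 gained a call, 51 moved in size and 30 turned direction. The counts of calls depended strongly on the tool and the gene filter, and the cause was not tested. In the hippocampus the genes with an unadjusted p under 0.05 post-KD numbered 1762, against 599 in DESeq2, 2931 with no gene filter, 221 with filterByExpr, 348 with the donor as a block, 765 in limma-voom and 897 in limma-voom without donors 9 and 10 (1636 to 1756 with 1 donor left out). The number past the adjusted threshold was 1, against 1291 with no gene filter and 0 in DESeq2, with filterByExpr, with the block and in limma-voom without donors 9 and 10 (0 to 1 with 1 donor left out). In the cortex 1731 genes became 825, 3035, 407, 548, 996 and 1029 in the same order, and 1 adjusted call became 2 in DESeq2, 3 with the block and 5 in limma-voom without donors 9 and 10. Between regions 554 calls became 1033 in DESeq2 and 2100 with no cohort block, and in the interaction 3 became 348 with no block and 0 in limma-voom, with and without donors 9 and 10.

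Of the 9 RNAs, the hippocampal count post-KD of 0 became 1, *Gm42418*, with no gene filter, with the block and without donors 9 and 10, where 1765 of 16977 genes were called (0 to 1 with 1 donor left out). The cortical count of 3 became 2 in DESeq2, with filterByExpr and without donors 9 and 10, where 825 of 17873, 407 of 10033 and 1600 of 17370 genes were called. It became 4 with the block and in limma-voom, where 548 and 996 of 17873 genes were called. With 1 donor left out it ranged from 1 to 4, where 1575 to 1719 of 17595 to 17651 genes were called. The 3 RNAs called between regions became 2 in limma-voom, with RLE size factors and with library totals, where 514, 541 and 540 of 19422 genes were called. They became 1 in DESeq2, with no cohort block and, in edgeR and limma-voom, without donors 9 and 10, where 468 and 428 of 18887 genes were called (1 to 4 with 1 donor left out, where 448 to 555 genes were). The 1 of the interaction became 0 with no block and in limma-voom with and without these donors. Beyond the values printed beside the results (the interaction of *n-R5-8s1* among them), the block changed no other call of these RNAs.

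Directions turned mostly where a difference was near 0. In the hippocampus post-KD, *Meg3* became 0.069 in limma-voom and 0.18 in limma-voom without donors 9 and 10, where *Malat1* became 0.19 and *Neat1* -0.10. With 1 donor left out, *Meg3* ranged from -0.11 to 0.023 and *Snhg11* from -0.12 to 0.080, both turning without donor 8. Cortical *Gm42418* was -0.037 without donors 9 and 10 in edgeR and -0.040 in limma-voom and ranged from -0.031 to 0.16 with 1 donor left out. Between regions *Gm42418* became 0.021 in DESeq2 and with RLE size factors, 0.015 with library totals and 0.0024 with no block. Its range with 1 donor left out was -0.078 to 0.044. It passed edgeR's adjusted threshold without donor 1, 3 or 4 (lower) and without donor 7 (higher). A permutation of signs over all 20 cohorts gave p = 0.894 for *Gm42418*. *Meg3* became -0.0077 in limma-voom without donors 9 and 10, and *Neat1* ranged from -0.045 to 0.21 with 1 donor left out. The interaction of *Snhg11* became -0.034 in edgeR and -0.081 in limma-voom without donors 9 and 10. The correlation between regions was 0.369 for *Meg3* and 0.442 for *Neat1* with raw shares, no longer past 0.05, and 0.115 for *Neat1* without donors 9 and 10, while *Miat* turned to 0.0213 and 0.0314. The correlation of *Meg3* with *Snhg11* became 0.658 and 0.606 with raw shares, and that of *Meg3* with *Rian* in the hippocampus became -0.0489 with raw shares, -0.00032 with ribosomal counts left out and -0.111 without donors 9 and 10. The spread between pools exceeded counting error in all 9 RNAs, and pooling hides the spread between mice.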
